A study of Triticum aestivum with 18 samples.

Results

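The 200 wheat probe sets described here were those whose signal rose most in both near-isogenic lines at both times after greenbug infestation. Greenbug is an aphid that feeds on cereal leaves from the phloem. The lines were TXGBE273, labelled resistant, and TXGBE281, labelled susceptible. Leaves of greenhouse plants at the 3-leaf stage were taken at 0 h, labelled control. Others were taken 24 h or 48 h after greenbug biotype E had been placed on the plants. Each of the 6 groups of line and time had 3 arrays, so 18 arrays of the Affymetrix wheat type were compared. Nothing in the labels says whether the 3 arrays of a group came from separate plants, so the p-values measure the spread between these arrays. Infested leaves were compared with leaves at 0 h, and uninfested leaves of the later times were not analysed here. Therefore infestation, plant age and time of sampling cannot be told apart. In bulk leaf, fewer cells of a type and less RNA per cell cannot be told apart either.

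Plants attacked by phloem-feeding insects make many proteins that are scarce in unattacked leaves. Among the best known are the pathogenesis-related proteins, which include enzymes that cut microbial cell walls, inhibitors of foreign enzymes and thaumatin-like proteins. In wheat, which carries related copies of most genes in its subgenomes, a probe set can read the transcripts of more than 1 copy.

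For each probe set, y was log2(signal + 16), averaged over the 3 arrays of a group. The candidates were 25706 probe sets with no gene symbol or a LOC symbol and a largest group mean signal of 200 or more, out of 61115 that were not controls. Of these candidates, 24889 had no symbol and 817 had a LOC symbol. Each was scored by the smallest of its 4 changes from 0 h (resistant at 24 h and 48 h, susceptible at 24 h and 48 h), and the members were chosen by this score, as the 200 highest. The scores ran from 2.43 to 7.42 with a median of 2.93. The last probe sets inside were Ta.9385.3.S1_at at 2.44, TaAffx.23237.1.S1_at at 2.43 and Ta.12422.1.S1_at at 2.43. Just outside were TaAffx.70573.1.S1_at at 2.42, Ta.10168.1.S1_at at 2.42 and Ta.8533.1.A1_s_at at 2.41. Probe sets to which the platform annotation gives another symbol were barred. This removed none that would have entered, since 9 of them reached the same signal and the highest of their scores was 0.30.

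Gene symbols were scarce among the members. The platform annotation gave a LOC symbol to 13 members, from 12 genes, and none to the other 187. Of the 12 genes, all listed as protein coding by RefSeq, 1 had an older name there: LOC543292 is PR5, a thaumatin-like pathogenesis-related protein. No role is given here to the other members, which are named by their probe set.

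Some members shared a sequence cluster with another member. A wheat probe set is named after a sequence cluster, and the 200 members came from 165 such clusters, of which 141 gave 1 member, 16 gave 2 and 8 gave 3 or more. Ta.7022 gave 5 members and Ta.8582 gave 4. Hence 59 members had another member of their own cluster and were not independent measurements of different genes. Probe sets ending in x_at, which hold probes that can match more than 1 transcript, made up 46 members, or 23%, against 16.6% of the candidates. The 46 clusters with a candidate outside the 200 held 122 such neighbours, of which 52, or 42.6%, scored above 1, against 6.09% of all candidates. One cluster, TaAffx.128418, held 54 of these neighbours, with scores up to 0.87. Without it the share was 52 of 68, or 76.5%.

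Arrays of a group resembled each other closely, while some measures other than the members also differed between the groups. Pearson's r between arrays of a group, over all probe sets, lay between 0.94 and 0.96. Every array had been scaled to a trimmed mean of 500.1, so all changes are relative to that common level. The 36 probe sets of leaf photosynthesis genes, which mark leaf mesophyll, were mostly for rbcL, the large subunit of Rubisco. The others were for PsbO, PsbP, petC, PRK and FBP. All 36 summed to 480977 to 565034 in the resistant line at 0 h and to 241352 to 291832 at 48 h. In the susceptible line their sum was 418480 to 470209 at 0 h and 182320 to 210934 at 48 h. Of these leaf probe sets 28 were tested with limma, calling an adjusted p (Benjamini-Hochberg) under 0.05, and 13, 15, 17 and 16 fell in the 4 changes from 0 h (resistant at 24 h and 48 h, then susceptible), with at most 1 rising. Of all probe sets tested, 14.6%, 16.4%, 16.3% and 19.1% fell. The leaf list's median changes were -0.65, -0.83, -0.995 and -0.994 on the log2(signal + 16) scale. Because most of the list reads rbcL, these counts and medians are not of independent genes. Grain storage proteins, which leaves should lack, were read by 13 probe sets, whose summed signals lay between 2382.6 and 5294.6 in susceptible leaves at 48 h and between 281 and 1234 elsewhere. That sum was carried by 2 probe sets for the gliadin LMGli2482, at 1910.2 to 4819 in susceptible leaves at 48 h. They were the 2 of 8 tested that were called higher, at 48 h in each line. The other 11 summed to 399 to 476 in susceptible leaves at 48 h and to 259.7 to 791 elsewhere. Grain serpins were not in this list and are counted below with the inhibitors. In susceptible leaves at 48 h the serpin WSZ2a changed by 2.22, to a mean of 111, and WSZ1b by -1.54. Their limma adjusted p were 0.000575 and 0.00626, and the other serpin probe sets were too dim to be tested. Ratios of 3′ to 5′ control probe sets, a sign of RNA quality, ranged from 0.234 to 0.577 at 0 h and 0.136 to 0.871 on infested arrays for GAPDH. For actin they ranged from 0.702 to 7.67 and from 0.273 to 4.86, and for EF1A from 0.103 to 10.3 and from 0.917 to 20.7. The part of these differences in the members' values was not tested.

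The members were dim at 0 h and bright after infestation in both lines. The median of their group mean signals was 172 in the resistant line at 0 h, 2453 at 24 h and 2754 at 48 h. Corresponding medians in the susceptible line were 165, 3186 and 4915. At 0 h, 70 members had a resistant mean under 100 and 77 a susceptible mean under 100, and none had a mean over 10000. After infestation no member had a group mean under 100, and 30 were over 10000 in the resistant line at 24 h, 30 at 48 h, and 47 and 52 in the susceptible line. The 200 probe sets took 0.151% to 0.265% of an array's summed signal at 0 h and 1.97% to 3.76% on infested arrays. As a measure of background, 64 reporter probe sets for sequences that wheat lacks had a 95th percentile of 56.4 to 152 by array. At or under that percentile on all 6 arrays at 0 h were 54 members, whose starting level is therefore known only as low.

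**Figure D1:**
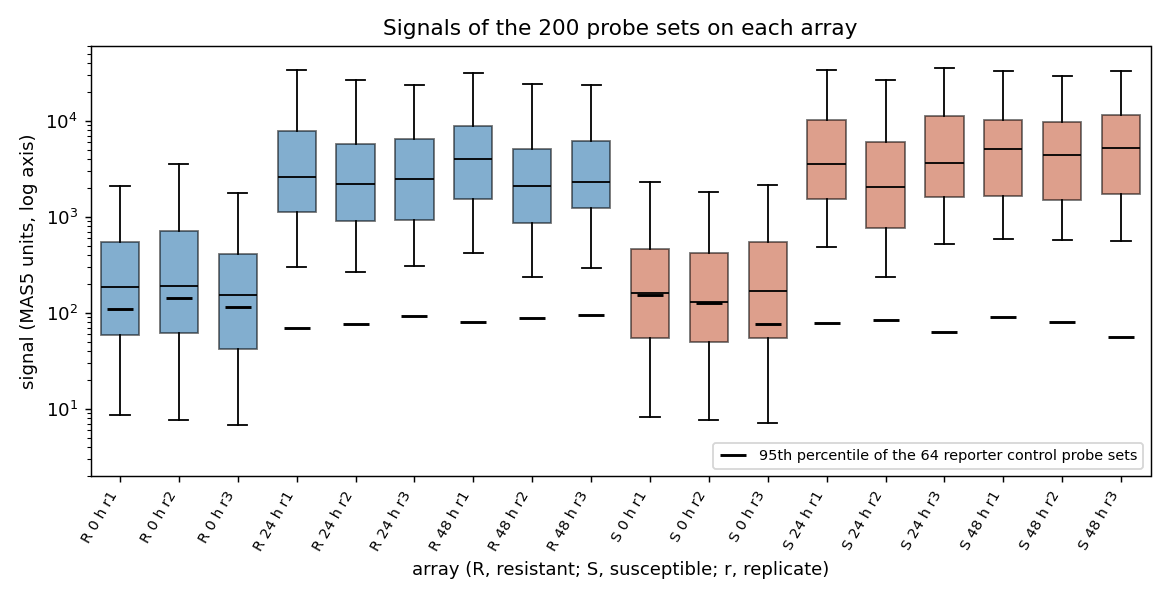
Signal of the 200 probe sets on each of the 18 arrays, in MAS5 units on a log axis. Boxes span the quartiles with the median as a line, whiskers run from the 5th to the 95th percentile, and the thick bar is the 95th percentile of the reporter probe sets. Array medians lie between 130 and 191 at 0 h and between 2052 and 5204 after infestation.

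The sizes of the 4 changes from 0 h are what chose the members, so they are described and not tested. On the log2(signal + 16) scale the median change was 3.36 in the resistant line at 24 h and 3.37 at 48 h, and 3.81 and 4.38 in the susceptible line. The same medians over all 46183 probe sets tested were -0.02, -0.06, -0.07 and -0.08. All 200 passed the filter on low signals, as they had to, since it needs only 3 bright arrays. In 199 members all 12 infested arrays were above all 6 arrays at 0 h, which held for 9.25% of all probe sets tested, and nothing is read from that count because the same arrays chose the members. The other member was Ta.8582.2.S1_x_at, with 113 on a susceptible array at 24 h against 126 on one at 0 h. The smallest of a member's changes was the resistant one at 24 h in 63 members and at 48 h in 67. The largest was the susceptible change at 48 h in 118.

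Scaling the arrays to the bacterial hybridisation controls in place of the deposited scaling raised the 4 changes of every probe set alike, by 0.69, 0.53, 0.46 and 0.74. The median of all probe sets then stood at 0.68, 0.47, 0.39 and 0.67, and that of the members at 4.05, 3.90, 4.26 and 5.12.

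The highest score belonged to Ta.28289.1.S1_x_at. Its signals were 68.7, 13.2 and 6.86 in the resistant line at 0 h, 7496, 6669 and 9517 at 24 h, and 23140.2, 8368 and 9034 at 48 h. Susceptible signals ran 12.1, 51.7 and 70.4, then 13656, 4727 and 12591, then 24425, 25202 and 26910.0. The arrays at 0 h were all at background, and the 3 susceptible arrays at 48 h were the brightest, with 1 resistant array close to them. Its resistant changes were 7.67 at 24 h and 8.30 at 48 h, and its susceptible changes 7.42 and 8.86. Another probe set of that cluster, Ta.28289.1.S1_a_at, had the third highest score, 6.81.

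Ta.26752.1.A1_at, Ta.12963.1.S1_at and Ta.13076.1.S1_at, with scores of 6.83, 6.35 and 6.20, had higher resistant than susceptible means at 24 h and 48 h. Ta.26752.1.A1_at read 8.59, 6.80 and 9.61 in the resistant line at 0 h, 8309, 6617 and 4618 at 24 h, and 10187, 4902 and 6177 at 48 h. Its susceptible signals were 6.47, 5.51 and 31.1, then 5477, 2328 and 6997, then 2835, 3064 and 3767. At 48 h the 3 resistant arrays were all above the 3 susceptible ones in each of these probe sets. For Ta.12963.1.S1_at the resistant mean at 48 h was 5317 ± 2503 (SD, n = 3) and the susceptible mean 2480.4 ± 476, and for Ta.13076.1.S1_at 3148 ± 1452 and 1409 ± 195. Of these 3, Ta.26752.1.A1_at alone was called higher in the resistant line at 48 h, by 1.08 ± 0.35 (SE), with a limma adjusted p of 0.049. That call was lost, at adjusted p of 0.053 to 0.21, when 1 array was left out from the resistant line at 0 h (any of 3), 24 h (replicate 2) or 48 h (replicates 1 and 3), or from the susceptible line at 0 h (replicate 1), 24 h (replicate 1) or 48 h (any of 3). Under the hybridisation control scale its adjusted p was 0.17.

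Ta.22766 contributed 3 members with scores from 5.16 to 6.06. The brightest, Ta.22766.1.S1_a_at, read 212, 189 and 152 in the resistant line at 0 h, 20715, 18249 and 16729 at 24 h, and 8739.6, 17096 and 15538 at 48 h. On susceptible arrays it read 73.2, 123 and 94.6, then 16881, 15458 and 14266, then 13131, 13806 and 12224. The lines overlapped at 24 h and at 48 h, and the susceptible arrays at 24 h lay above those at 48 h. No comparison of lines or of 48 h with 24 h was called for it.

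The largest group mean of a member with a symbol lay between 3162 and 44454. LOC543330, read by Ta.28.1.S1_at, had the largest score of the 13, at 4.55. Its signals were 1381, 1802 and 747 in the resistant line at 0 h, 43224, 35651 and 32638 at 24 h, and 38422, 24238 and 26688 at 48 h. Those of the susceptible line were 1442, 658 and 1018, then 37312, 33383 and 37167, then 37875, 33186 and 37157. The lines overlapped at every time. LOC543422, read by Ta.278.1.S1_at and Ta.278.1.S1_x_at, was the brightest at 0 h, with a resistant mean of 7069 ± 3343 (SD, n = 3) and a susceptible mean of 4756 ± 756 on the first probe set. After infestation that probe set averaged 37308 to 41001 in the 4 groups.

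PR5, the thaumatin-like protein, was read by Ta.24501.1.S1_at. Resistant signals were 1462, 2183 and 586 at 0 h, 21893, 8249 and 9099.8 at 24 h, and 12602, 6903 and 7919 at 48 h. Susceptible signals were 1535, 866 and 904, then 16686, 7683 and 19875, then 13038, 13050.5 and 17366. PR5 was thus well above background in unattacked leaves of both lines, and all infested arrays lay above all arrays at 0 h. Its resistant changes were 3.24 at 24 h and 2.82 at 48 h, and the susceptible ones 3.66 and 3.73. The difference between lines at 48 h was -0.70 ± 0.42 (SE), with a limma adjusted p of 0.36. None of the 7 comparisons other than the changes from 0 h was called, this one included.

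Among other probe sets of pathogenesis-related proteins and inhibitors, named through RefSeq from their LOC symbols, 6 were tested, and 2, 3, 3 and 4 rose in the 4 changes, where 17.6%, 17.4%, 17.2% and 17.9% of all probe sets tested rose, with median changes of 0.17, 0.47, 0.93 and 1.85. The only fall was of the serpin WSZ1b in the susceptible line at 48 h, named after its value was seen. The 4 rises there included the serpin WSZ2a, also named after its value was seen and also a grain protein. The xylanase inhibitor XIP-I rose in all 4 changes on both its probe sets, by 1.33 to 2.32, less than any member. For peroxidase or peroxiredoxin, catalase and glutathione transferase genes 10 probe sets were tested. They came only from TaPrx1, PER1, CAT1 and GSTZ1, so several read the same gene. None of the 10 rose, and 9, 8, 8 and 7 fell, beside the shares of falls given above for all probe sets. Their median changes were -2.10, -1.94, -1.35 and -2.18.

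**Figure D2:**
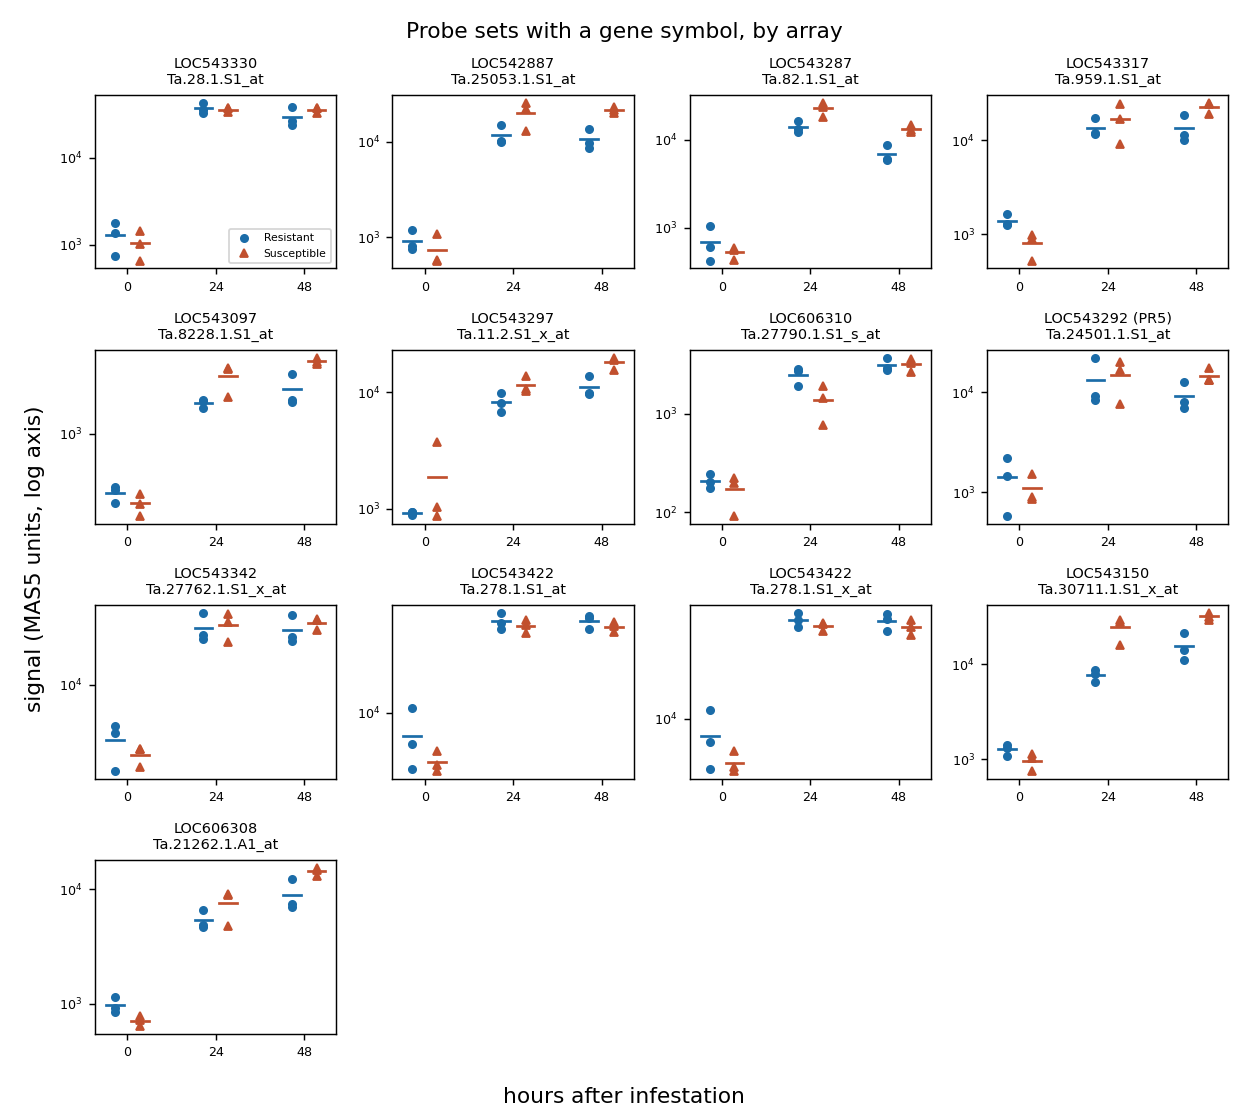
Signal of the 13 members with a gene symbol, in MAS5 units on a log axis, against hours after infestation. Each point is 1 array and each bar a group mean, with circles for the resistant and triangles for the susceptible line. LOC543150 and LOC543287 separate the lines at 24 h and 48 h, while LOC543330, LOC543422 and LOC543342 overlap.

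Other probe sets carrying the same symbols did not always follow. Of the 12 genes, 6 had a further probe set that was no member. For LOC606308 the second probe set, Ta.21262.1.A1_x_at, scored 2.38, just under the limit. For LOC543422, Ta.62.1.S1_x_at scored 1.70, and for LOC543297, Ta.11.2.S1_a_at scored 1.33 while 2 dim probe sets scored below 0. A member of LOC543150 and one of LOC543342 scored 2.57 and 2.65, whereas Ta.21350.2.S1_at and Ta.27762.1.S2_at of those genes scored 0.71 and 0.22, at largest group means of 468 and 498. LOC606310 was read by its member Ta.27790.1.S1_s_at at 2.86 and by the dim TaAffx.128563.3.S1_at at -1.59, with a largest group mean of 109.7.

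The score did not rank by the difference between the lines at each time or by the difference between 48 h and 24 h in each line. Nor did it rank by the difference between the lines in their change from 0 h. The differences between times, and between the lines in their change, are however made from changes that the score used. The rule treated lines and times alike and so set no direction in these comparisons. They come from the same arrays, however, and members with large changes have room for large differences. Each count is therefore given beside the share called among all probe sets tested.

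Before infestation few members differed between the lines. A single member, or 0.5%, was called at 0 h against 0.0217% of all probe sets, and 26 members had an unadjusted p under 0.05, which 6.87% of all probe sets had. TaAffx.50712.1.S1_at, the member called, read 9.41, 7.42 and 14.1 on resistant arrays against 69.2, 69.4 and 55.8 on susceptible ones. Both sets are at or under the reporter level. The difference was -1.62 ± 0.26 (SE) with a limma adjusted p of 0.023, which rose to between 0.052 and 0.090 when any 1 of the 6 arrays at 0 h was left out. With only those 6 arrays in the fit it was 0.93. The median difference of the members was 0.20, beside -0.0046 over all probe sets, and 149 were above 0.

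At 24 h, 54 of the 200 members were called different between the lines, or 27%, against 5.16% of all probe sets tested. Lower in the resistant line were 39, against 2.78% of all, and higher were 15, against 2.38%. The median difference was -0.12, beside 0.05 over all probe sets. At 48 h, 87 members were called, against 12.1% of all, with 76 lower in the resistant line and 11 higher, against 5.4% and 6.71%. The median then was -0.64, beside 0.03. Called lower at both times were 39 members, against 2.33% of all probe sets, and higher at both times 9, against 1.64%.

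The count at 24 h was 32 without the resistant 24 h array of replicate 2, 30 without that of replicate 3, 34 without the susceptible 24 h array of replicate 1 and 30 without that of replicate 3. Under the hybridisation control scale it was 17 higher and 28 lower, and the members' median turned to 0.03 beside 0.20 for all probe sets.

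**Figure D3:**
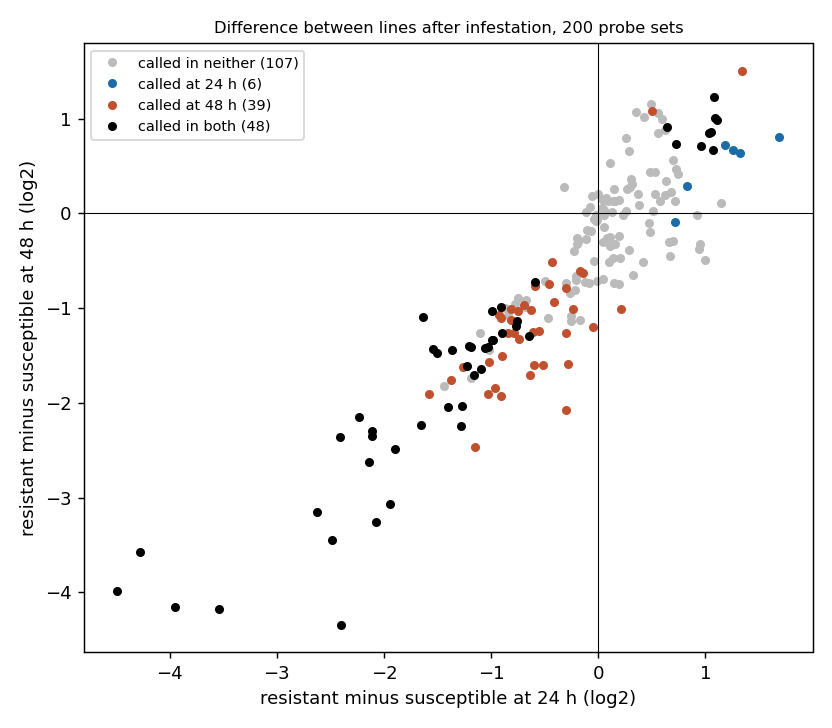
Resistant minus susceptible difference on the log2(signal + 16) scale at 24 h (horizontal) and 48 h (vertical), 1 point for each of the 200 members. Colours mark where the difference was called: 107 in neither, 6 at 24 h, 39 at 48 h and 48 at both. Most points called lie at lower left, down to -4.49 at 24 h.

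Ta.9225.1.S1_at had the widest gap between lines at 24 h. It was at background at 0 h, with 9.07, 10.8 and 6.81 on resistant arrays and 4.51, 9.49 and 17.9 on susceptible ones. In the resistant line it then read 355, 334 and 626 at 24 h and 3437, 602 and 720.2 at 48 h. Susceptible signals were 13336, 4407 and 15902 at 24 h and 18870.4, 15811 and 20836 at 48 h. Every infested array lay above the arrays at 0 h, and no infested resistant array reached an infested susceptible one. The difference was -4.49 ± 0.49 (SE) at 24 h and -3.99 ± 0.49 at 48 h, with limma adjusted p of 5.69e-06 and 1.21e-05. Another probe set of the cluster, Ta.9225.1.S1_x_at, gave -4.28 ± 0.51 and -3.58 ± 0.51.

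Ta.87.1.S1_at repeated that pattern at a lower level. Resistant signals were 67.6, 118 and 6.63 at 0 h, 552, 402 and 352 at 24 h, and 762, 388 and 253 at 48 h. Susceptible signals were 73.5, 61.2 and 49.1, then 7636, 4999 and 8301, then 7664, 7209.6 and 8645. The infested groups of the lines were far apart, and within each line 24 h and 48 h overlapped. The differences were -3.94 ± 0.44 and -4.16 ± 0.44 (SE), with limma adjusted p of 8.81e-06 and 2.16e-06.

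Ta.24650.3.S1_a_at was higher at 24 h than at 48 h in both lines' means. It read 1099.9, 866 and 983 in the resistant line at 24 h and 497, 546 and 331 at 48 h. The susceptible arrays read 12811, 7651 and 15517, then 6854, 8363 and 10233, so those of 24 h and 48 h overlapped. The difference between 48 h and 24 h was not called in either line. Other candidates of its cluster scored 0.70 to 1.48. After infestation all susceptible arrays lay above all resistant ones, by -3.53 ± 0.51 (SE) at 24 h and -4.17 ± 0.51 at 48 h as resistant minus susceptible, with limma adjusted p of 0.000152 and 1.14e-05. At 0 h it was at or under the reporter level on 3 of 6 arrays. The difference between the lines in the change from 0 h (line by infestation) was called at 48 h and not at 24 h. The gap at 24 h is therefore not shown to be a difference in rise.

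Ta.1215.1.S1_at had the widest gap at 48 h. In resistant leaves it averaged 13.0 ± 3.44 (SD, n = 3) at 0 h and read 291, 191 and 152 at 24 h, and 256, 236 and 154 at 48 h. Susceptible leaves gave 6.22, 14.6 and 19.3, then 1348, 606 and 1839, then 3745, 4408 and 5810.5. The resistant arrays overlapped between the infested times, and the susceptible arrays at 48 h all lay above those at 24 h. The gap was -2.40 ± 0.33 (SE) at 24 h and -4.34 ± 0.33 at 48 h, with limma adjusted p of 9.98e-05 and 2.36e-08. Between 24 h and 48 h the susceptible signal rose by 1.98 ± 0.33, with a limma adjusted p of 0.000557, while the resistant difference was 0.04 ± 0.33.

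**Figure D4:**
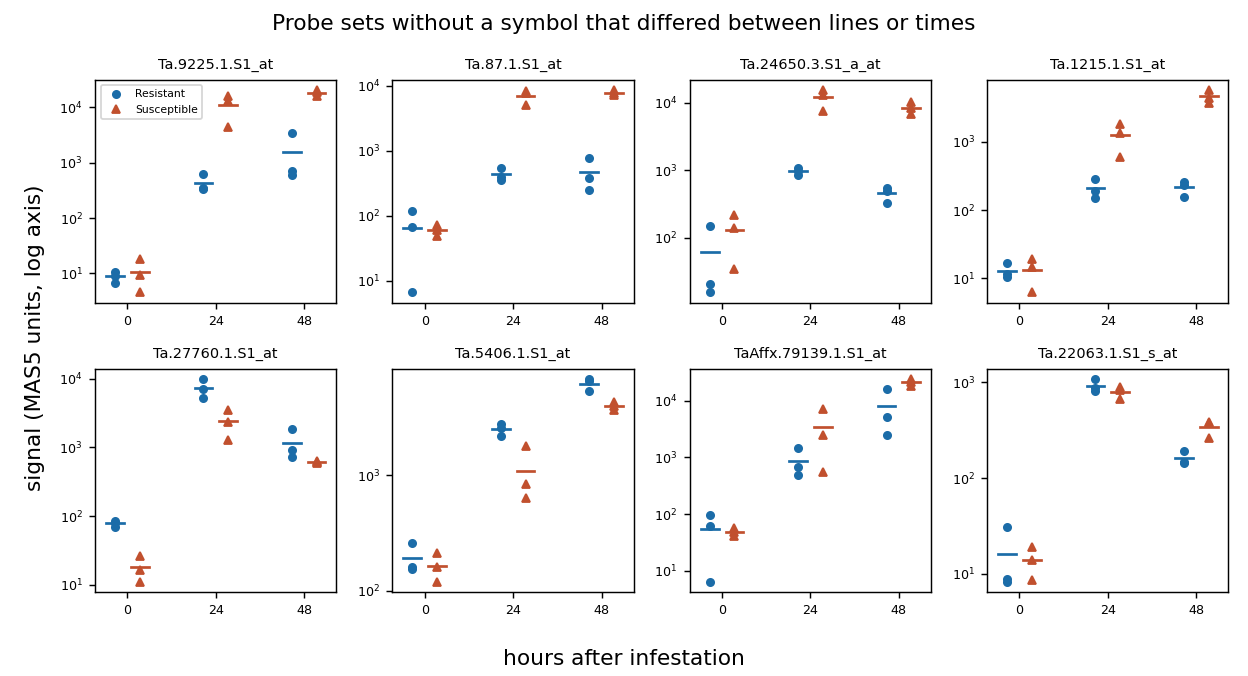
Signal of 8 members without a symbol, in MAS5 units on a log axis, against hours after infestation. Each point is 1 array and each bar a group mean. In Ta.9225.1.S1_at, Ta.87.1.S1_at, Ta.24650.3.S1_a_at and Ta.1215.1.S1_at the susceptible arrays lie above the resistant ones after infestation, and Ta.27760.1.S1_at and Ta.22063.1.S1_s_at are brighter at 24 h than at 48 h.

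Members higher in the resistant line differed by less. Ta.27760.1.S1_at had the largest such difference at 24 h, with 9862, 5202 and 7118 on resistant against 2347, 1294 and 3518 on susceptible arrays, 1.69 ± 0.32 (SE) with a limma adjusted p of 0.00238. At 0 h it averaged 78.3 ± 7.53 (SD, n = 3) against 17.9 ± 7.66, at or under the reporter level on all 6 arrays. Line by infestation was not called for it, so a larger rise in the resistant line is not shown. Ta.97.1.S1_at read 14478, 8673 and 8033 against 4475, 3474 and 4738 at 24 h, a difference of 1.26 ± 0.24 with a limma adjusted p of 0.00241. Its resistant arrays all lay above the susceptible ones at 24 h. No other comparison was called for it, line by infestation included. Nor was any called for Ta.97.2.S1_x_at, the other member of its cluster. Ta.8262.1.S1_at was called at both times, by 1.11 ± 0.20 and 0.98 ± 0.20, with means of 2153 ± 536 (SD, n = 3) against 982 ± 208 at 24 h and 2184 ± 349 against 1089 ± 50.1 at 48 h. For this probe set too, line by infestation was not called at either time.

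Among the members of the 12 genes with symbols, only Ta.30711.1.S1_x_at of LOC543150 was called lower in the resistant line at both times. For LOC543287 (Ta.82.1.S1_at) the resistant arrays also lay below the susceptible ones at both times, but the difference was called at 48 h alone. Ta.30711.1.S1_x_at read 1320.0, 1089 and 1396 in the resistant line at 0 h, 8638, 6432 and 7792 at 24 h, and 21155, 11011 and 13928 at 48 h. Susceptible arrays gave 1014, 751 and 1124, then 27477, 16029 and 29420.5, then 31302, 29411 and 34577. The lines overlapped at 0 h and were apart at both later times, by -1.63 ± 0.22 (SE) and -1.10 ± 0.22 with limma adjusted p of 7.66e-05 and 0.00195. LOC543287 (Ta.82.1.S1_at), LOC542887 (Ta.25053.1.S1_at), LOC543097 (Ta.8228.1.S1_at) and LOC606308 (Ta.21262.1.A1_at) were also called lower in the resistant line at 48 h, by -0.97 ± 0.23, -1.03 ± 0.26, -1.10 ± 0.26 and -0.74 ± 0.22, with limma adjusted p of 0.00861, 0.011, 0.00773 and 0.032.

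Those 4 calls rested on few arrays. Without the resistant 48 h array of replicate 2 the adjusted p was 0.053 for LOC543287, 0.069 for LOC542887, 0.053 for LOC543097 and 0.18 for LOC606308. Without that of replicate 3 it was 0.053 for LOC543097 and 0.13 for LOC606308, and without the susceptible 48 h array of replicate 3 it was 0.051 for LOC542887 and 0.12 for LOC606308, which also reached 0.088 without susceptible replicate 1.

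The difference between the lines in the change from 0 h was tested directly as line by infestation. At 24 h it was called in 20 members, or 10%, against 1.6% of all probe sets, with 19 smaller rises in the resistant line and 1 larger, against 0.97% and 0.628%. At 48 h it was called in 54 members against 5.06%, with 53 smaller and 1 larger, against 2.53% each way. The members' medians were -0.32 and -0.74, beside 0.06 and 0.04 over all probe sets. These values subtract the line difference at 0 h, where the members' median was 0.20, beside -0.12 at 24 h and -0.64 at 48 h. They are therefore not differences between infested leaves alone. At 24 h the count was 11 without the resistant 24 h array of replicate 2, 12 without the susceptible 0 h array of replicate 2, and 13, 42 and 11 without the susceptible 24 h arrays of replicates 1, 2 and 3. At 48 h it was 34 without the resistant and 31 without the susceptible 48 h array of replicate 3.

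Ta.1215.1.S1_at had the widest gap between the rises at 48 h, -4.34 ± 0.47 (SE), with a limma adjusted p of 8.47e-06, from signals at or under the reporter level on all 6 arrays at 0 h. Ta.26340.1.A1_at followed with -4.22 ± 0.67 and an adjusted p of 0.000688. It read 10.0, 169 and 111 in the resistant line at 0 h and 18.4, 30.5 and 18.7 in the susceptible line, then 1369.6, 609.6 and 542 against 5769.8, 7164 and 6819.9 at 48 h. At 0 h 5 of the 6 arrays were at or under the reporter level, and at 48 h the susceptible arrays all lay above the resistant ones. Of members with symbols, Ta.30711.1.S1_x_at (LOC543150) had -2.04 ± 0.31 at 24 h and -1.50 ± 0.31 at 48 h. Its limma adjusted p were 0.000907 and 0.00678. The dimmer Ta.21350.2.S1_at, which carries the same symbol, did not show such a gap. Its 24 h changes were 0.71 (resistant) and 0.94 (susceptible), and its 48 h changes 0.91 and 1.05. The difference in rise is therefore shown for the member and not for the gene as a whole.

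Between 24 h and 48 h most members were not called. In the resistant line 24 were called, or 12%, against 5.18% of all probe sets, with 10 higher and 14 lower at 48 h, against 2.57% and 2.61%. In the susceptible line 44 were called, or 22%, against 10.2%, with 38 higher and 6 lower, against 4.82% and 5.33%. The median difference was 0.03 for resistant and 0.27 for susceptible leaves, beside -0.04 over all probe sets in each. In both lines 9 members rose, against 1.67% of all probe sets, and 6 fell, against 1.65%. Whether a member's 48 h to 24 h difference itself differed between the lines was not tested. The resistant count was 12, 10 and 13 without the 24 h arrays of replicates 1, 2 and 3 and 11 without the 48 h array of replicate 3, and the susceptible count was 29 without the 24 h array of replicate 2. Under the hybridisation control scale the resistant calls were 5 higher and 15 lower.

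**Figure D5:**
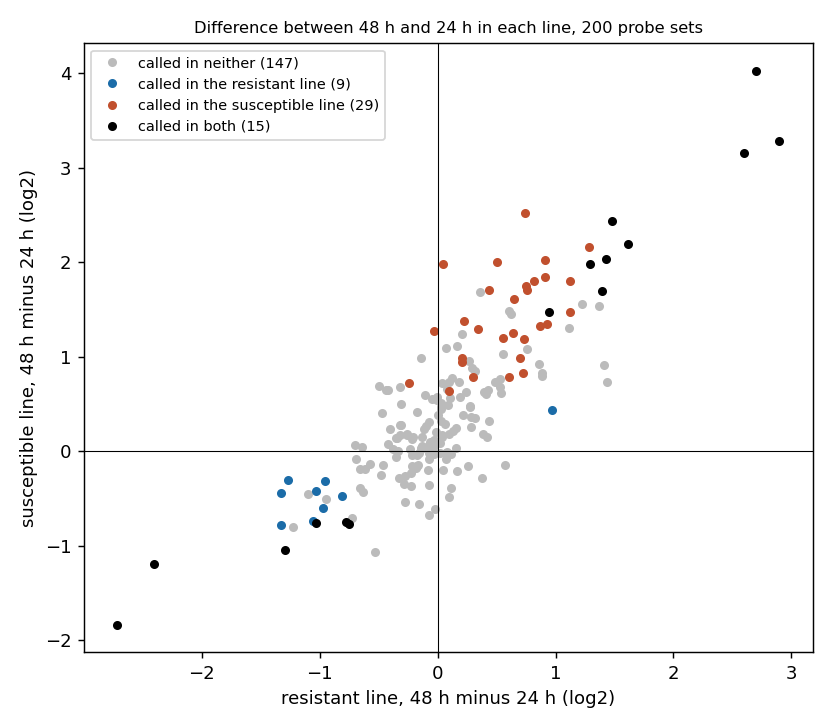
Difference between 48 h and 24 h on the log2(signal + 16) scale in the resistant line (horizontal) and the susceptible line (vertical), 1 point for each of the 200 members. Colours mark where it was called: 147 in neither, 9 in the resistant line, 29 in the susceptible line and 15 in both. The 15 called in both lie at the upper right and the lower left.

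TaAffx.79139.1.S1_at rose further from 24 h to 48 h in both lines. It read 1476, 677 and 485 in the resistant line at 24 h and 16459.8, 2513 and 5139 at 48 h. Its susceptible readings were 2522, 552 and 7191, then 21703, 18213 and 24209.9. No array at 24 h reached the 48 h arrays of its own line, and the spread within groups was wide. The resistant rise was 2.90 ± 0.72 (SE) and the susceptible rise 3.28 ± 0.72, with limma adjusted p of 0.024 and 0.0053. In the resistant line the adjusted p was 0.076 and 0.098 without the 24 h arrays of replicates 2 and 3, and 0.12 and 0.053 without the 48 h arrays of replicates 1 and 3.

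Ta.5406.1.S1_at showed the same direction with less spread. It read 2174, 2766 and 2555 in the resistant line at 24 h and 6417, 5273 and 6720.1 at 48 h. Susceptible signals were 1781, 636 and 841, then 3918, 4262 and 3614. The times did not overlap in either line. The resistant rise was 1.29 ± 0.27 (SE) and the susceptible rise 1.98 ± 0.27, with limma adjusted p of 0.0075 and 9.1e-05. TaAffx.79218.1.S1_at had the largest rise of any member in the susceptible line, 4.02 ± 0.76, from a mean of 660.0 ± 703 (SD, n = 3) to 6516 ± 1629.5.

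Ta.27760.1.S1_at, Ta.22063.1.S1_s_at and Ta.22766.1.S1_at went the other way. Ta.27760.1.S1_at, given above at 24 h, read 1836, 725 and 927 in the resistant line at 48 h and 625, 587 and 606 in the susceptible line. It fell by 2.72 ± 0.32 (SE) and 1.84 ± 0.32, with limma adjusted p of 6.8e-05 and 0.000804. Within each line its arrays at 48 h were all below those at 24 h and above those at 0 h. Ta.22063.1.S1_s_at fell by 2.41 ± 0.27 in the resistant line, from 1084, 866 and 823 to 149, 190.1 and 145, and in the susceptible line it fell by 1.19 ± 0.27, from 665, 887 and 839.9 to 383, 264 and 379. The susceptible fall had a limma adjusted p of 0.0065, which was 0.080 under the hybridisation control scale and 0.061 with an offset of 1. The resistant arrays at 48 h were then below the susceptible ones, by -1.01 ± 0.27 with a limma adjusted p of 0.017. Ta.22766.1.S1_at fell by 1.30 ± 0.18 and 1.05 ± 0.18, from means of 2899.7 ± 115 (SD, n = 3) to 1189.8 ± 258 in resistant leaves and from 2521 ± 609.7 to 1186 ± 72.0 in susceptible leaves.

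LOC543287 (Ta.82.1.S1_at) was the only gene with a symbol called lower at 48 h than at 24 h in both lines. Its resistant signals were 609, 1055 and 423 at 0 h, 16450.4, 12136 and 13321 at 24 h, and 8765, 5869 and 5997 at 48 h. Susceptible signals were 559.7, 431 and 591, then 23556, 18236 and 26388, then 12147, 12891 and 14717. The times did not overlap in either line. It fell by 1.03 ± 0.23 (SE) and 0.77 ± 0.23, with limma adjusted p of 0.013 and 0.042. The resistant call was lost, at up to 0.072, without the 24 h array of replicate 1 or the 48 h array of replicate 2 or 3. The susceptible call was lost at an adjusted p of 0.25 under the hybridisation control scale and, at up to 0.14, without 1 susceptible array at 0 h (replicate 1), 24 h (replicates 1 and 3) or 48 h (any of 3), or 1 resistant array at 0 h (replicate 1) or 24 h (replicate 3).

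The highest of the 4 infested means fell in the susceptible line at 48 h for 110 members, in the resistant line at 24 h for 41, in the resistant line at 48 h for 28 and in the susceptible line at 24 h for 21. The same shares over all probe sets tested were not counted, so nothing particular to the members is read from these counts. No call in any of the 7 comparisons was made for 80 members, or 40%, against 79.4% of all probe sets tested, among them Ta.28289.1.S1_x_at, Ta.12963.1.S1_at, Ta.13076.1.S1_at, PR5, LOC543330, LOC543342, LOC543422 and LOC543297. A call missed does not show that the lines or times were equal: for LOC543330 (Ta.28.1.S1_at) the line difference at 48 h was -0.30 ± 0.26 (SE) with a limma adjusted p of 0.57.

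Within groups the members moved together from array to array. The resistant 48 h array of replicate 1 was the highest of its 3 in 169 of the 200 members, where it was highest in 35.5% of all probe sets tested. The susceptible 24 h array of replicate 2 was the lowest of its 3 in 176 members, against 33.8% of all. The resistant 24 h array of replicate 1 was highest in 142 members, against 35.3%. The members' median signals on those arrays were 3959, 2052 and 2576, where the other arrays of their groups had 2112 and 2313, 3528 and 3666, and 2186 and 2452.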

How the data were processed

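Biotin-labelled leaf RNA of 18 samples was hybridised to Affymetrix wheat arrays. The authors deposited 1 intensity per probe set and array, made with MAS5 per the submitters' processing notes, in which a version is not stated. The deposited intensity values were linear, and each array had the same 2% trimmed mean, so they were taken as scaled by the authors. No detection calls were used. Probe levels, cell files and uninfested plants at 24 h and 48 h were not analysed here. 0 columns were left unused.

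Here 175 control probe sets were set aside from 61290. Values were log2(signal + 16), and probe sets above their array's 40th percentile on at least 3 arrays were kept (46183 tested, 14932 not). limma 3.58.1 in R 4.3.3 was fitted to all 18 arrays in 6 groups (lmFit, then eBayes with an intensity trend), with Benjamini-Hochberg adjustment over all probe sets tested and calls at an adjusted p under 0.05. The fit was tested on simulated data. Counts of members stand beside the share of all probe sets called. A log2(signal + 16) difference understates the change of dim probe sets. Precision is limited by having 3 arrays a group.

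The members, gene lists and named probe sets were chosen with earlier results of these data known. Probe sets were named by rule: every member with a symbol, the 12 highest scores, the 3 next to the limit on each side, the 5 largest called differences in each direction of each comparison, and the 5 brightest and dimmest at 0 h. Symbols came from the platform annotation, updated through RefSeq (IWGSC CS RefSeq v2.1), where 1 of 1273 annotated probe sets had no match. Gene coordinates are not given because the study names no assembly, and sequences and promoters were not used here.

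Alternatives were other scalings (quantile, median, hybridisation controls), offsets of 1 and 64, no or a stricter filter (signal of 200 or more), other variance models, only the arrays compared, the replicate number as a block, and leaving out each array.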

Additional observations from a re-analysis of the deposited data

Results flagged for a closer look

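The rise from 0 h differed between the lines, by the line by infestation term of the limma fit, in the following named members; values are resistant minus susceptible on the log2(signal + 16) scale. At 24 h the rise was smaller in the resistant line for Ta.9225.1.S1_x_at (-4.50), Ta.9225.1.S1_at (-4.42), Ta.87.1.S1_at (-3.67), Ta.26340.1.A1_at (-3.09), Ta.8571.1.S1_x_at (-3.09) and LOC543150 (Ta.30711.1.S1_x_at, -2.04), and larger for Ta.28468.2.S1_s_at (1.77). At 48 h it was smaller for Ta.1215.1.S1_at (-4.34), Ta.26340.1.A1_at (-4.22), Ta.9225.1.S1_at (-3.91), Ta.87.1.S1_at (-3.88) and Ta.9225.1.S1_x_at (-3.80). Among genes with a symbol at 48 h it was smaller for LOC543317 (Ta.959.1.S1_at, -1.65), LOC543150 (Ta.30711.1.S1_x_at, -1.50), LOC543097 (Ta.8228.1.S1_at, -1.47), LOC542887 (Ta.25053.1.S1_at, -1.37), LOC543287 (Ta.82.1.S1_at, -1.27) and LOC606308 (Ta.21262.1.A1_at, -1.17). The single member called with a larger rise in the resistant line at 48 h was Ta.30540.1.S1_at (1.59). The call of Ta.28468.2.S1_s_at at 24 h, at an adjusted p of 0.047, was lost without any of 13 arrays, 5 of them outside the comparison, and that of Ta.30540.1.S1_at at 48 h, at 0.030, was lost without any of 6. The smaller rises were fragile in part as well. The call of Ta.26340.1.A1_at at 24 h was lost without any of 7 arrays. At 48 h the calls of LOC543317, LOC543097 and LOC543287 were each lost without any of 6 arrays, that of LOC542887 without any of 7 and that of LOC606308 without any of 8. The other smaller rises named here kept their call whichever array was left out. With an offset of 1, however, the call of Ta.87.1.S1_at at 24 h was lost, at a limma adjusted p of 0.074. That of Ta.8571.1.S1_x_at at 24 h was lost without the variance trend, at 0.054.

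Ta.28468.2.S1_s_at read 4.02, 55.8 and 42.6 in the resistant line at 0 h and 94.9, 76.5 and 57.4 in the susceptible line, all at or under the reporter level. At 24 h it read 1815, 1871 and 2096 against 1208, 1256 and 1043, without overlap. Ta.30540.1.S1_at read 2916, 1587 and 1916 against 883, 957 and 799 at 48 h, also without overlap, and 49.4, 136 and 139 against 198, 119 and 97.8 at 0 h, where the lines overlapped.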

How the results depend on the processing

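Members called numbered 10 without the variance trend and 35 with array weights for line by infestation at 24 h (20 as reported), 22 without the trend for line by infestation at 48 h (54), 7 without the trend for 48 h minus 24 h in the resistant line (24) and 28 without the trend between the lines at 24 h (54). Between the lines at 0 h (1 as reported) the count was 0 under the hybridisation control scale, 2 with an offset of 1, 0 with an offset of 64 and 0 with only the arrays compared. Leaving out 1 array at a time gave 11 to 42 and 31 to 69 for line by infestation at 24 h and 48 h, 10 to 32 and 29 to 51 for 48 h minus 24 h in the resistant and susceptible line, and 0 to 2, 30 to 68 and 61 to 101 between the lines at 0 h, 24 h and 48 h. Of 70 named calls, 37 were kept under all 29 settings, and the others kept their direction. Applied again, the rule kept 194 of the 200 members under quantile normalization, 198 under median centring, 192 under the hybridisation control scale, 173 and 170 with offsets of 1 and 64, and 185 to 200 when 1 array was left out. Under the hybridisation control scale the calls of line by infestation at 24 h were 3 higher and 15 lower. The causes of these shifts were not tested. With the replicate number as a block the counts were 28 and 61 for line by infestation at 24 h and 48 h, 27 and 48 for 48 h minus 24 h in the resistant and susceptible line, and 1, 61 and 94 between the lines at 0 h, 24 h and 48 h. Same-numbered arrays of different groups had r from -0.04 to 0.06 over 45 pairs, which does not settle the question for the members alone. Among the members, replicate 2 was most often the lowest of 3 in every infested group. It was lowest for 108 (resistant, 24 h), 126 (resistant, 48 h), 176 (susceptible, 24 h) and 118 (susceptible, 48 h). Among resistant arrays at 0 h it was replicate 3, for 111 members. Whether same-numbered arrays share more than a number was not tested for the members.

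The members' dim signals at 0 h, 54 of them at or under the reporter level on all 6 arrays, limit how far the sizes of their rises can be read.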
